A study of Homo sapiens with 4 samples.

Results

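The genes described here are 36 genes of cholesterol and fatty acid metabolism, taken by name from 40188 genes with a value. They comprise 18 enzymes of the sterol branch, 8 of the fatty acid branch, 5 regulators of the pathway (SREBF1, SREBF2, SCAP, INSIG1 and INSIG2), the sterol carrier STARD4, the phosphatidate phosphatase LPIN1, and ABCA1, ABCG1 and MYLIP, which are targets of the liver X receptors (LXR). Each of the 36 symbols matched a single Ensembl gene, and 34 had a mean of at least 1 cRPKM over the libraries. The genes were chosen with earlier results of these data known. Their shares set against all genes below are therefore descriptions and carry no test. The RNA came from HEK293, a human embryonic kidney cell line, in 4 stable lines that carried a doxycycline-inducible transgene: MSI1 (an RNA-binding protein), SRRM3, SRRM4 (related proteins that promote inclusion of neural microexons) or an empty vector. All 4 lines, the empty-vector line included, had received doxycycline at 1 µg/mL for 24 h in medium with serum. Each line is represented by 1 library of polyA-selected RNA, and the labels do not say whether a line was a clone or a pool. No difference has a replicate check, and an effect of a transgene cannot be told apart from other differences between the lines.

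The library totals lay between 60288244 and 63003121 counts. Each induced gene was highest in its own library, with MSI1 at 62.43 cRPKM, SRRM3 at 38.53 cRPKM and SRRM4 at 63.78 cRPKM there. In the other libraries MSI1 lay between 8.19 and 10.56 cRPKM, with 8.38 in the empty vector. SRRM3 and SRRM4 lay at or below 1.39 cRPKM outside their own libraries. The kidney-lineage markers LHX1, EYA1 and PAX2 lay between 0.73 and 4.75 cRPKM and VIM between 909.49 and 1211.14 cRPKM. The hepatocyte, adipocyte and blood markers lay at or below 0.36 cRPKM in every library. The share of counts from the 13 mitochondrially encoded mRNAs was 1.02% in MSI1, 1.28% in SRRM3, 0.891% in SRRM4 and 0.838% in the empty vector, and the part of this in the results was not tested.

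Sterols and fatty acids are both built from acetyl-CoA, and the enzymes of both routes are controlled at the transcript level by the sterol regulatory element-binding proteins, SREBP-1 and SREBP-2, encoded by SREBF1 and SREBF2. When membrane cholesterol is plentiful, the INSIG proteins hold SCAP and its SREBP cargo in the endoplasmic reticulum. When it is scarce, SCAP escorts SREBP to the Golgi, where proteolysis frees the part that enters the nucleus. SREBP-2 acts mainly on sterol genes and SREBP-1c mainly on fatty acid genes, while oxysterols activate LXR, whose targets include the cholesterol exporters ABCA1 and ABCG1 and the ubiquitin ligase MYLIP, which degrades the LDL receptor. INSIG1 and both SREBF genes are themselves SREBP targets.

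SREBP proteins bind promoters together with NF-Y, a factor that recognises the CCAAT box, so promoter windows are shown first. RefSeq windows on GRCh38.p14, from 250 bases before to 50 bases after an annotated start, were found for 31 of the 36 genes, 44 windows in all. The sterol regulatory element was searched as TCACNCCAC and as its narrower form TCACCCCAC, and the NF-Y box as CCAAT, each on both strands. SREBF2 is shown because it was the only gene with a match to the sterol element. INSIG1 and SCD, chosen after their values were seen, are shown because they were the only genes without an overlapping gene among the 7 that differed by at least 1.3-fold between the SRRM4 and SRRM3 libraries. Capitals mark the sterol element and the NF-Y box, which reads ATTGG where it lies on the other strand. The windows are chr22:41832855-41833154 for SREBF2, chr7:155297628-155297927 for INSIG1 and chr10:100346983-100347282 for SCD, all on the plus strand.
SREBF2: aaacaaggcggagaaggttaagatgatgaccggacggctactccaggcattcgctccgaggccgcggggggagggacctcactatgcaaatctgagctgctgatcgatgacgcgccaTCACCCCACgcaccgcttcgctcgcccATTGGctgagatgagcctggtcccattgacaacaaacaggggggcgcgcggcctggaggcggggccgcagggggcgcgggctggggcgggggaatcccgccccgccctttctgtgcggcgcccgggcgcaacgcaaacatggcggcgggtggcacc
INSIG1: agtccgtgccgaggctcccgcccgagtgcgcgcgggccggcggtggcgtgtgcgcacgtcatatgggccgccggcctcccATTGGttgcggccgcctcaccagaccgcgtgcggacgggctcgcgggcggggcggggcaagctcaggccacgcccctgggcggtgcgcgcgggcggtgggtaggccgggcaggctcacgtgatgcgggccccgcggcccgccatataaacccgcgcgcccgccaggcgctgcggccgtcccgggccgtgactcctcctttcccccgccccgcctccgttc
SCD: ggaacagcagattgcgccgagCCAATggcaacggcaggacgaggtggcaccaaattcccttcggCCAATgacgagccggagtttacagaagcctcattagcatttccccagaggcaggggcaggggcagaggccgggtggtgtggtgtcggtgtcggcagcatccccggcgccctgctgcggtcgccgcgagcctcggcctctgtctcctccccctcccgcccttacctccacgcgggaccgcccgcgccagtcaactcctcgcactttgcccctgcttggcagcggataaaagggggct

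In SREBF2 the sterol element began 133 bases before the start and the NF-Y box 106 bases before it. The NF-Y box began 170 bases before the start in INSIG1, and 229 and 186 bases before it in SCD. An NF-Y box was present in 26 of the 44 windows (59.1%), against 34.6% of 35116 windows of all genes and 35.0% of the windows of genes that passed the level filter. It was present in 15 of 20 sterol branch windows and in 7 of 12 fatty acid branch windows. The sterol element TCACNCCAC was present in 1 of the 44 windows (2.27%) and in 1.13% of all windows. TCACCCCAC was present in the same SREBF2 window and in 0.43% of all windows. Some windows belong to the same gene, and a match is only a string of letters.

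**Figure D1:**
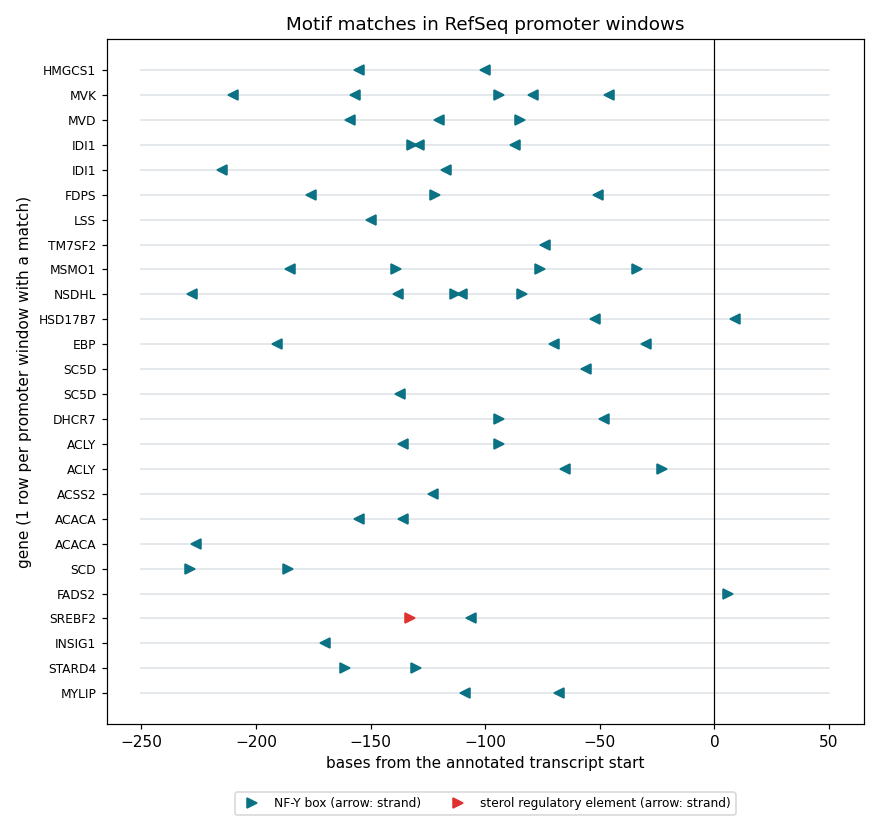
Positions of NF-Y boxes (teal) and the sterol regulatory element (red) in RefSeq promoter windows of the 36 genes, in bases from the annotated transcript start, with 1 row per window that held a match and arrows giving the strand. The red arrow, 133 bases before the start of SREBF2, is the single match to the sterol element.

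Transcripts of most of these genes were abundant in these cells. In the empty vector the 34 genes that passed the filter had a median rank at the 80.5th percentile of 12706 genes with a mean of at least 1 cRPKM, and the lowest stood at the 40.6th. The highest were ACLY (ATP-citrate lyase, which supplies cytosolic acetyl-CoA), SCD (stearoyl-CoA desaturase), FDPS (farnesyl diphosphate synthase) and FASN (fatty acid synthase), between 133.23 and 203.18 cRPKM in the empty vector. cRPKM is a read density per gene length, so levels of different genes can be set side by side. Counts behind a passing gene in a library lay between 974 and 76790.

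The summed level of the sterol branch was 804.52 cRPKM in MSI1, 844.21 in SRRM3, 754.08 in SRRM4 and 807.01 in the empty vector. That of the fatty acid branch was 565.42 cRPKM in MSI1, 692.64 in SRRM3, 584.87 in SRRM4 and 627.35 in the empty vector. Both sums were highest in SRRM3. In bulk RNA a lower level per cell and a smaller share of expressing cells cannot be told apart. The sterol sum was lowest in SRRM4 and the fatty acid sum lowest in MSI1. The sum of the sterol branch divided by that of the fatty acid branch was 1.42 in MSI1, 1.22 in SRRM3, 1.29 in SRRM4 and 1.29 in the empty vector. MSI1 had the highest value in this balance of sums. The most abundant genes weigh most in a sum. By gene, the median log2 ratio of the fatty acid branch over the empty vector was -0.24 in MSI1 and -0.23 in SRRM4. In the sterol branch it was 0.0016 in MSI1 and -0.095 in SRRM4.

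Among the 4 libraries, SRRM3 held the highest depth-scaled count for 20 of the 34 genes, MSI1 for 8, SRRM4 for 1 (SCAP) and the empty vector for 5. Over all 12706 genes tested, 26.3% were highest in SRRM3, 33.7% in MSI1, 21.2% in SRRM4 and 18.7% in the empty vector. SRRM4 was lowest for 18 of the 34 genes, MSI1 for 9, the empty vector for 5 and SRRM3 for 2. Over all genes tested, 24.8% were lowest in SRRM4, 26.8% in MSI1, 21.6% in the empty vector and 26.8% in SRRM3. In shares, 58.8% of these genes were highest in SRRM3 and 52.9% were lowest in SRRM4.

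The comparison without the empty vector, SRRM4 over SRRM3, asks how the related proteins' lines differ. A gene was counted as higher or lower at a ratio of depth-scaled counts of at least 1.3-fold, a threshold on size alone, with no test behind it. By that rule 7 of the 34 genes (20.6%) were lower in SRRM4 and 0 were higher, against 6.19% lower and 3.26% higher among all genes tested. Among genes with a mean of at least 5 cRPKM, which all 34 reach, the background was 2.55% lower and 1.85% higher. The median log2 ratio was -0.20, beside -0.0065 for all genes tested, and 30 of the 34 ratios (88.2%) were below 1, beside 51.5% of all genes. Intervals given below are exact conditional (Clopper-Pearson) 95% intervals of a ratio of 2 libraries. Counting error is all that they cover, so they say how far 2 libraries differ and nothing of the conditions.

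The regulators SREBF1 and INSIG1 had the lowest ratios. SREBF1 (ENSG00000072310, GRCh38 chromosome 17, 17810399 to 17837002), which encodes SREBP-1, was at 6.90 cRPKM in SRRM4 and 11.46 cRPKM in SRRM3, a ratio of 0.603 (0.568 to 0.639). It was at 8.81 cRPKM in MSI1 and 8.44 cRPKM in the empty vector, so SRRM3 was the highest and SRRM4 the lowest of the 4. INSIG1 (ENSG00000186480, chromosome 7, 155297776 to 155310235), the endoplasmic reticulum anchor described above, was at 29.58 cRPKM in SRRM4 and 48.82 cRPKM in SRRM3, a ratio of 0.606 (0.586 to 0.627). MSI1, at 40.39 cRPKM, and the empty vector, at 39.59 cRPKM, lay between them and close to each other.

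The paralogous regulators had the same direction with smaller differences. SREBF2, which encodes SREBP-2, was at 34.03 cRPKM in SRRM4 and 41.53 cRPKM in SRRM3, a ratio of 0.819 (0.799 to 0.841), with 41.45 in MSI1 and 37.04 in the empty vector. INSIG2 was at 9.54 cRPKM in SRRM4 and 11.21 cRPKM in SRRM3, a ratio of 0.852 (0.794 to 0.913), with 10.14 in MSI1 and 10.94 in the empty vector. SCAP, the escort protein, was at 24.99 cRPKM in SRRM4 and 24.29 cRPKM in SRRM3, with an interval that included 1 (0.994 to 1.07), and at 20.79 in MSI1 and 21.69 in the empty vector. The level of INSIG1 divided by that of INSIG2 was accordingly 3.10 in SRRM4 and 4.36 in SRRM3, with 3.98 in MSI1 and 3.62 in the empty vector.

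In the fatty acid branch all 8 ratios of SRRM4 over SRRM3 were below 1, with a median log2 ratio of -0.25. Of these genes 3 (37.5%) were called lower, against 6.19% of all genes tested. Among genes with a mean of at least 5 cRPKM the share was 2.55%. FADS2, the delta-6 desaturase of polyunsaturated fatty acids, was at 43.76 cRPKM in SRRM4 and 65.47 cRPKM in SRRM3, a ratio of 0.668 (0.649 to 0.688). SCD (chromosome 10, 100347124 to 100364834), which makes monounsaturated fatty acids, was at 122.95 cRPKM in SRRM4 and 166.66 cRPKM in SRRM3, a ratio of 0.738 (0.727 to 0.748). FADS1, the delta-5 desaturase, was at 34.47 cRPKM in SRRM4 and 45.44 cRPKM in SRRM3, a ratio of 0.759 (0.738 to 0.779). All 3 called genes of this branch are thus desaturases. FADS1 and FADS2 overlap on opposite strands of chromosome 11, and the sources do not state whether strand was used in counting, so their reads may not be separate. The same limit holds for 21 of the 36 genes, SREBF1 (which overlaps RAI1) and HMGCS1 (which overlaps AC114947.2) among them.

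The remaining fatty acid genes differed less between these libraries. ACACA, the acetyl-CoA carboxylase that commits carbon to fatty acids, had a ratio of 0.810 (0.793 to 0.828), and ELOVL6, an elongase of long-chain fatty acids, one of 0.877 (0.838 to 0.918). ACLY had a ratio of 0.915, FASN 0.965 (0.955 to 0.974) and ACSS2, the cytosolic acetyl-CoA synthetase, 0.953 with an interval that included 1 (0.886 to 1.02). The carbon-supplying and chain-building enzymes ACLY, ACSS2 and FASN therefore lay nearest to equality.

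In the sterol branch 15 of 18 ratios of SRRM4 over SRRM3 were below 1, with a median log2 ratio of -0.17. Of these genes 2 (11.1%) were called lower, against 6.19% of all genes tested. Among genes with a mean of at least 5 cRPKM the share was 2.55%. TM7SF2, a sterol C14 reductase, was at 14.10 cRPKM in SRRM4 and 20.40 cRPKM in SRRM3, a ratio of 0.691 (0.646 to 0.740). It overlaps VPS51 on the same strand of chromosome 11, so the assignment of its reads is uncertain. HMGCS1 (chromosome 5, 43289395 to 43313512), which makes HMG-CoA at the head of the mevalonate route, was at 59.77 cRPKM in SRRM4 and 80.57 cRPKM in SRRM3, a ratio of 0.742 (0.725 to 0.759). MVD (mevalonate diphosphate decarboxylase) lay just short of the 1.3-fold threshold, at a ratio of 0.774 (0.728 to 0.823).

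The mevalonate and late sterol steps did not separate cleanly. NSDHL, a C4-demethylation enzyme, MVK (mevalonate kinase) and IDI1 (isopentenyl diphosphate isomerase) had ratios of 0.794, 0.803 and 0.803. MSMO1 (a C4-methyl oxidase), FDPS, LSS (lanosterol synthase), CYP51A1 (lanosterol demethylase), PMVK (phosphomevalonate kinase), HSD17B7 (a 3-ketosteroid reductase), FDFT1 (squalene synthase) and ACAT2 (acetoacetyl-CoA thiolase) had ratios between 0.857 and 0.956. The 3 genes above 1 were SC5D (a sterol C5 desaturase) at 1.08 (1.04 to 1.13), DHCR7 (7-dehydrocholesterol reductase) at 1.06 (1.02 to 1.10) and SQLE (squalene epoxidase) at 1.05 (1.02 to 1.09). EBP, a sterol isomerase, had an interval that included 1 (0.935 to 1.05). FDPS, CYP51A1, HSD17B7, SCD and FADS2 have named pseudogenes, with which reads can be shared.

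**Figure D2:**
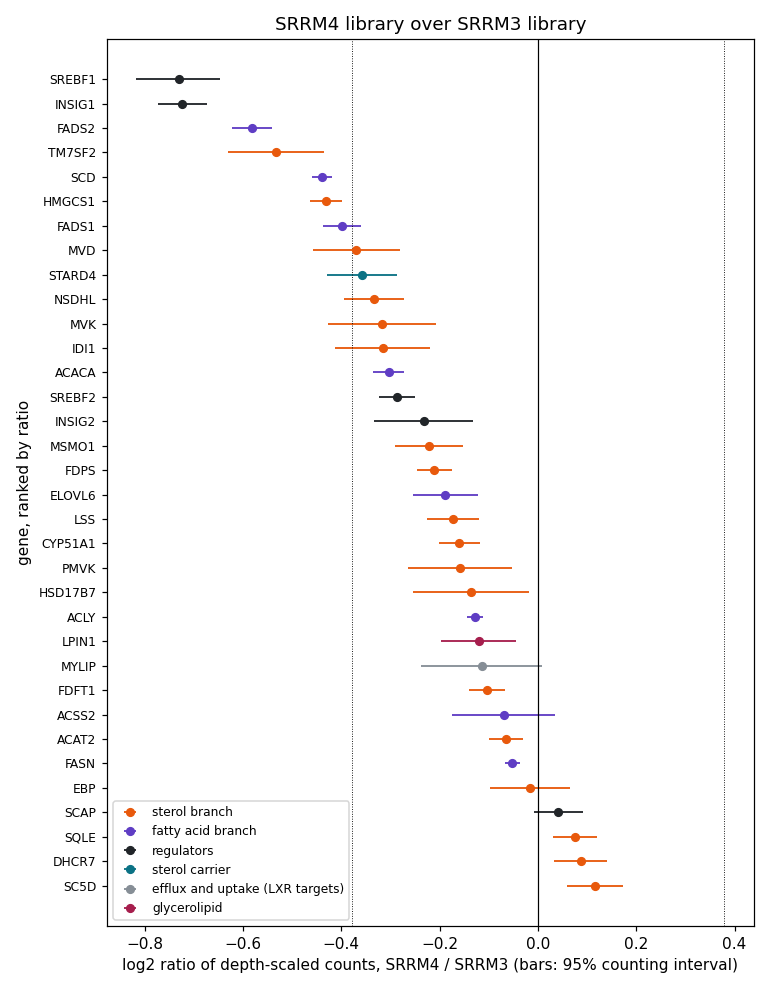
Log2 ratio of depth-scaled counts in the SRRM4 library over the SRRM3 library for the 34 genes that passed the level filter, ranked, with 95% counting intervals and dotted lines at 1.3-fold. The 7 points beyond the left dotted line are led by SREBF1 and INSIG1, no point lies beyond the right one, and 3 points with intervals above 0 (SQLE, DHCR7 and SC5D) lie at the bottom.

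STARD4, which carries cholesterol between membranes, was at 10.15 cRPKM in SRRM4 and 13.01 cRPKM in SRRM3, a ratio of 0.780 (0.742 to 0.819), with 13.12 in MSI1 and 13.48 in the empty vector. SRRM4 alone was low, and the other 3 libraries lay close together. Of the LXR targets MYLIP alone passed the filter, at 10.39 cRPKM in SRRM4 and 11.25 cRPKM in SRRM3, with an interval that included 1 (0.848 to 1.01). ABCG1, which did not pass the filter, had 80 counts in SRRM4 and 163 counts in SRRM3, a ratio of 0.512 (0.387 to 0.673), with 195 in MSI1 and 123 in the empty vector. ABCA1 was listed at 0 counts in all 4 libraries. MARS1, a methionyl-tRNA synthetase that every cell uses, was also listed at 0 in all 4, so a 0 in these files may be a failed estimate and no limit is given for ABCA1. LPIN1, which makes diacylglycerol, had a ratio of 0.920 (0.873 to 0.969).

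The SRRM3 and SRRM4 libraries lay on opposite sides of the empty vector for 7 genes, by more than counting error on each side and at least 1.3-fold apart: SREBF1, INSIG1, FADS2, TM7SF2, SCD, HMGCS1 and FADS1. These are 20.6% of the 34, against 2.35% of all genes tested. They are the same 7 genes that were called lower in SRRM4 over SRRM3, so this is not a separate result. The rule needs intervals that exclude 1, which genes with many counts meet more easily. No background was computed for it among genes with a mean of at least 5 cRPKM. Each of the 7 was above the empty vector in SRRM3 and below it in SRRM4. The MSI1 library took no common position among these genes. It was near the empty vector for SREBF1 and INSIG1, level with SRRM3 for HMGCS1 (80.74 and 80.57 cRPKM), and below the empty vector for FADS2, TM7SF2, SCD and FADS1.

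**Figure D3:**
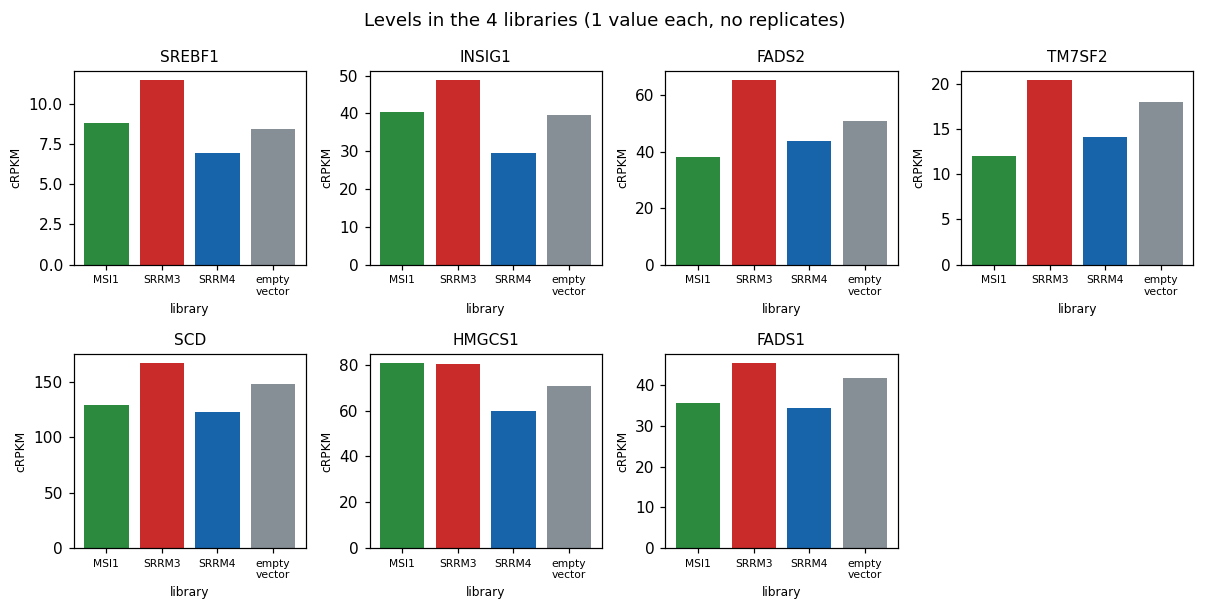
cRPKM of the 7 genes in the MSI1, SRRM3, SRRM4 and empty-vector libraries, 1 value per bar and no error bars because each group has 1 library. In every panel the SRRM3 bar is above and the SRRM4 bar below the empty-vector bar, while MSI1 is the lowest bar for FADS2 (38.31 cRPKM) and TM7SF2 (11.96 cRPKM).

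The SRRM3 line was next set against the empty vector, to see which of these transcripts differ with SRRM3 induced. SREBF1, at 11.46 cRPKM in SRRM3 and 8.44 cRPKM in the empty vector, had a ratio of 1.36 (1.29 to 1.44). MVD, at 22.03 cRPKM in SRRM3 and 16.66 cRPKM in the empty vector, had a ratio of 1.32 (1.24 to 1.41). These were the 2 genes of 34 (5.88%) called higher, against 5.90% of all genes tested, and 0 were called lower, against 3.05%. Among genes with a mean of at least 5 cRPKM, 2.12% were higher and 1.86% lower. The ratios were nevertheless mostly above 1, in 27 of 34 genes (79.4%), beside 50.5% of all genes, and their median log2 ratio was 0.12, beside 0.0027.

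FADS2 and PMVK came next in SRRM3, with ratios of 1.28 (1.25 to 1.32) and 1.26 (1.17 to 1.36). MVK had a ratio of 1.24 (1.15 to 1.34) and INSIG1 one of 1.23 (1.196 to 1.272). MVK, PMVK and MVD, which act after HMGCS1 in the mevalonate route, were therefore the sterol genes with the highest ratios. HMGCS1 had a ratio of 1.14 and ACAT2 one of 1.01. At the other end SC5D, at 32.90 cRPKM in SRRM3 and 39.60 cRPKM in the empty vector, had a ratio of 0.831 (0.80 to 0.863), and SQLE one of 0.884 (0.857 to 0.910). MSMO1 and DHCR7 were the other sterol genes below 1, while LSS, CYP51A1, TM7SF2, NSDHL, HSD17B7 and EBP, which also act after squalene is formed, had ratios between 1.01 and 1.15. The median log2 ratio was 0.070 in the sterol branch and 0.12 in the fatty acid branch, a difference of -0.045.

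The same comparison was made for the SRRM4 line. INSIG1, at 29.58 cRPKM in SRRM4 and 39.59 cRPKM in the empty vector, had a ratio of 0.747 (0.721 to 0.774). STARD4 had a ratio of 0.753 (0.717 to 0.791). ACACA, at 24.34 cRPKM in SRRM4 and 31.95 cRPKM in the empty vector, had a ratio of 0.762 (0.746 to 0.778). These 3 of 34 (8.82%) were called lower, against 2.57% of all genes tested, and 0 were called higher, against 3.32%. Among genes with a mean of at least 5 cRPKM, 1.14% were lower and 1.07% higher. Of the 34 ratios 26 (76.5%) were below 1, beside 51.0% of all genes, with a median log2 ratio of -0.12, beside -0.0031.

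MSMO1 and TM7SF2 lay just above the limit of the rule in SRRM4, with ratios of 0.779 (0.743 to 0.817) and 0.783 (0.730 to 0.839). SCAP was the highest of the 34, at 24.99 cRPKM in SRRM4 and 21.69 cRPKM in the empty vector, at a ratio of 1.15 (1.11 to 1.19). INSIG1 and SCAP, whose proteins bind each other, thus differed in opposite directions, and the level of INSIG1 divided by that of SCAP was 1.18 in SRRM4, against 1.83 in the empty vector. FASN was at 138.28 cRPKM in SRRM4 and 133.23 cRPKM in the empty vector, at a ratio of 1.04 (1.03 to 1.05), whereas ACACA, the step before it, was lower. The median log2 ratio was -0.095 in the sterol branch and -0.23 in the fatty acid branch, a difference of 0.13.

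In the line with induced MSI1, set against the empty vector, the medians of the branches lay farthest apart. The fatty acid branch had a median log2 ratio of -0.24 and the sterol branch one of 0.0016, a difference of 0.24, beside a median of 0.016 over all genes. In the fatty acid branch 6 of 8 ratios were below 1. FADS2, at 38.31 cRPKM in MSI1 and 51.00 cRPKM in the empty vector, had a ratio of 0.751 (0.728 to 0.775). ACACA, FASN and ELOVL6 had ratios of 0.833 (0.816 to 0.851), 0.835 (0.826 to 0.844) and 0.835 (0.798 to 0.874). FADS1 and SCD followed at 0.856 and 0.874. The 2 ratios above 1 were those of ACLY, at 1.02 (1.01 to 1.03), and ACSS2, at 1.10 (1.02 to 1.18), the enzymes that supply acetyl-CoA to both routes. With TMM or DESeq2 factors in place of total counts ACLY had a log2 ratio of -0.0047 or -0.0058.

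The sterol branch of MSI1 spread in both directions. TM7SF2, at 11.96 cRPKM in MSI1 and 18.00 cRPKM in the empty vector, had a ratio of 0.664 (0.618 to 0.714), and SQLE, at 40.36 cRPKM in MSI1 and 50.14 cRPKM in the empty vector, one of 0.805 (0.781 to 0.830). MVD, PMVK, HSD17B7 and HMGCS1 had ratios of 1.28, 1.19, 1.16 and 1.14. SREBF2 had a ratio of 1.12 (1.09 to 1.15) in MSI1 while SREBF1 had an interval that included 1 (0.985 to 1.11). LPIN1 (chromosome 2, 11677595 to 11827409) was at 12.41 cRPKM in MSI1 and 7.84 cRPKM in the empty vector, at a ratio of 1.58 (1.51 to 1.66). It was at 9.03 cRPKM in SRRM3 and 8.30 in SRRM4, so MSI1 alone was high.

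By the 1.3-fold rule 2 of the 34 genes (5.88%) were lower in MSI1, TM7SF2 and FADS2, against 4.14% of all genes tested. A single gene (2.94%), LPIN1, was higher, against 6.91%. Among genes with a mean of at least 5 cRPKM the shares were 2.53% lower and 3.20% higher. The 3 comparisons with the empty vector share that library, so their values for a gene are not independent.

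**Figure D4:**
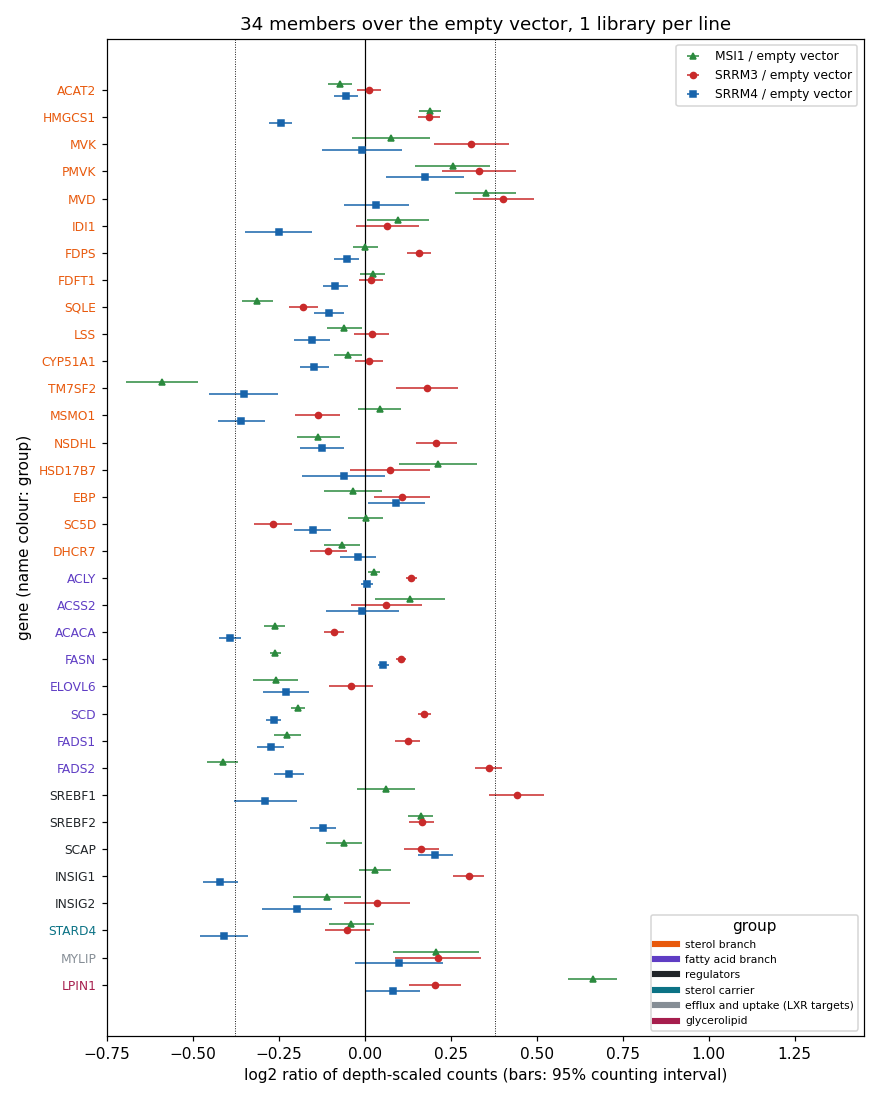
Log2 ratio of depth-scaled counts over the empty vector for the 34 genes, in pathway order, in MSI1 (triangles), SRRM3 (circles) and SRRM4 (squares), with 95% counting intervals and dotted lines at 1.3-fold. From ACACA to FADS2 the MSI1 points lie together on the left, and LPIN1 in MSI1 is the point farthest to the right, at 0.66.

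**Figure D5:**
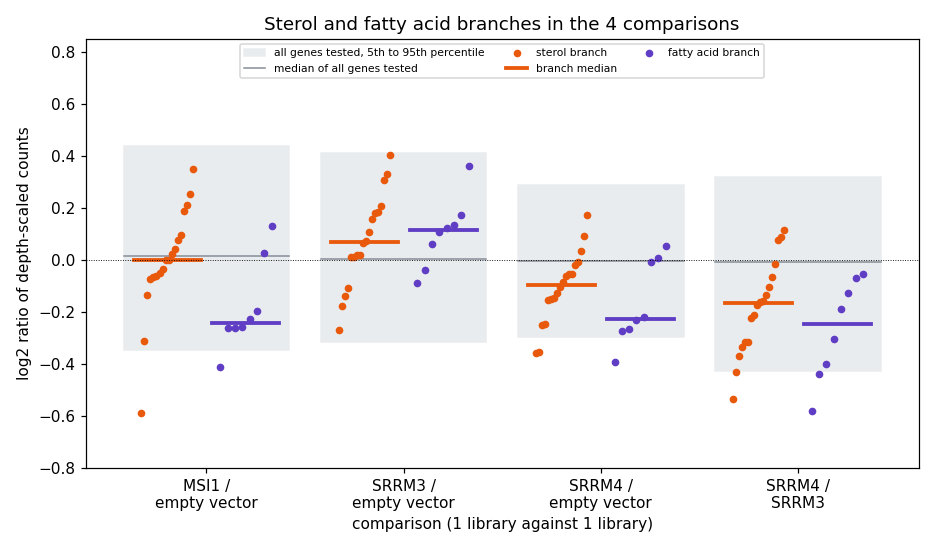
Log2 ratios of the 18 sterol branch genes and 8 fatty acid branch genes in the 4 comparisons, with branch medians as thick bars, and the median and the range from the 5th to the 95th percentile of all genes tested in grey. The medians are farthest apart in MSI1 over the empty vector (0.0016 and -0.24), and most points stay inside the grey range.

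Other genes of lipid metabolism were taken from further lists. Of 86 genes in 7 further lists (SREBP processing, sterol transport and storage, LXR and RXR, isoprenoid branches, other fatty acid synthesis, carbon and NADPH supply, and glycerolipids), 79 passed the filter. Their median log2 ratio of SRRM4 over SRRM3 was -0.0040, with 1 gene (1.27%) lower, against 6.19% of all genes tested, and 0 higher, against 3.26%. Among genes with a mean of at least 5 cRPKM, which most of the 79 reach, the background was 2.55% lower and 1.85% higher. The lists differed among themselves. The 18 genes of other fatty acid synthesis had a median of -0.071, with 12 below 0, and the 11 of the isoprenoid branches one of 0.075, with 3 below 0. The gene called lower was SLC25A1, the mitochondrial citrate carrier that feeds ACLY. It was at 70.11 cRPKM in SRRM4 and 94.94 cRPKM in SRRM3, a ratio of 0.739 (0.716 to 0.762). None of the 13 genes of SREBP processing was called in any of the 4 comparisons. Between 2.57% and 6.91% of all genes tested were called per comparison and direction. The share of all genes called in none of the 4 comparisons was not computed, so the 0 of 13 has no matching background.

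Over the empty vector, the 9 genes of carbon and NADPH supply had a median log2 ratio of -0.0375 in MSI1, one of 0.0625 in SRRM3 and one of -0.115 in SRRM4. Of the 79 genes 1 (1.27%) was higher in MSI1, against 6.91% of all genes tested, and 2 (2.53%) were lower, against 4.14%. Among genes with a mean of at least 5 cRPKM, 3.20% were higher and 2.53% lower in MSI1. The shares there were 2.12% higher and 1.86% lower in SRRM3, and 1.07% higher and 1.14% lower in SRRM4. DGAT2, a triglyceride synthase, was at 1.54 cRPKM in MSI1 and 1.15 cRPKM in the empty vector, at a ratio of 1.33 (1.09 to 1.64). PCYT2, of phosphatidylethanolamine synthesis, and MID1IP1, an activator of acetyl-CoA carboxylase, had ratios of 0.756 (0.718 to 0.795) and 0.768 (0.699 to 0.843). In SRRM3 the single called gene (1.27%, against 3.05% lower and 5.90% higher among all genes) was GPAM, a glycerol-3-phosphate acyltransferase, with a ratio of 0.758 (0.725 to 0.793). In SRRM4 the single called gene (1.27%, against 2.57% lower and 3.32% higher among all genes) was DGAT2, at 0.76 cRPKM in SRRM4 and 1.15 cRPKM in the empty vector, at a ratio of 0.659 (0.514 to 0.842). The 4 LXR and RXR genes had a median log2 ratio of 0.35 in MSI1, with all 4 above 0 and none called. RXRA had an interval that included 1 there (0.959 to 1.06). All 4 were also above 0 in SRRM3 (median 0.10) and SRRM4 (median 0.17), since the empty vector was the lowest library for each.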

How the data were processed

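The deposited files give, per library and Ensembl gene, a cRPKM value (a corrected RPKM) and a whole-number read count, both made by the authors. Per the submitters' processing notes the build was hg38 (GRCh38). The aligner, the counter and any use of strand were not given in the sources used here. Of 41614 genes, 1426 without a value were left out. Over 6108 well-covered genes, ratios of cRPKM and of counts divided by library totals differed by at most 0.0025 in log2.

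Symbols came from an Ensembl ID table and coordinates and overlaps from GENCODE 29. Ratios used deposited counts divided by library totals, with counts under 3 raised to 3. Genes with a mean of at least 1 cRPKM were tested, 12706 in all. With 1 library per group no p-value was computed. Intervals (95%) cover counting error only, since each group has 1 library. They treat reads as independent molecules, which reads are not, so they may be too narrow even for that error. The induced genes were left out of a comparison's background. The procedure was tested on simulated data.

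The members and lists were chosen with earlier results of these data known. All members were to be named, and up to 3 called genes per comparison from the further lists. Alternatives covered scaling, pseudocounts on cRPKM, filters, fold rules, the branch summary and branch membership. Protein sequences were not used here. Tables were computed with pandas 2.3.3 and numpy 2.4.6 on Python 3.11.15, intervals with scipy 1.17.1 and figures with matplotlib 3.10.9. The alternative scaling factors came from edgeR 4.0.16 and DESeq2 1.42.0 in R 4.3.3.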

Additional observations from a re-analysis of the deposited data

Results flagged for a closer look

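For 7 genes every library of SRRM3 moved to one side of the empty vector and every library of SRRM4 to the other, with 1 library each, so the difference was not tested. The ratio of SRRM4 over SRRM3 was 0.603 for SREBF1, 0.606 for INSIG1, 0.668 for FADS2, 0.691 for TM7SF2, 0.738 for SCD, 0.742 for HMGCS1 and 0.759 for FADS1.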

How the results depend on the processing

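Counts of called genes depended on the fold rule. At 1.2-fold SRRM4 over SRRM3 had 14 genes lower (background 11.6%), SRRM4 over the empty vector 8 lower (6.45%), SRRM3 over the empty vector 6 higher (11.3%) and 1 lower (7.69%), and MSI1 over the empty vector 2 higher (12.8%). At 1.5-fold the counts were 2 lower for SRRM4 over SRRM3 (background 2.11%), 1 lower for MSI1 (1.58%), 0 lower for SRRM4 (0.724%) and 0 higher for SRRM3 (2.46%) over the empty vector. Percentages are shares of all genes tested. At 2-fold each of these was 0, and MSI1 also had 0 higher, against backgrounds between 0.102% and 0.693%. A 0 among 34 genes says little at such shares. A pseudocount of 2 on cRPKM left 1 gene lower in SRRM4 and 0 higher in SRRM3 over the empty vector. Without the filter ABCG1 entered in every comparison. Over the empty vector MSI1 then had 2 genes higher, SRRM3 3 higher and SRRM4 4 lower, and SRRM4 over SRRM3 had 8 lower. No background share was computed with that pseudocount or without the filter. With the mean in place of the median the branch difference was 0.18 for MSI1 and 0.062 for SRRM4 over the empty vector. With the regulators and STARD4 in the sterol branch and LPIN1 in the fatty acid branch, the branch difference of SRRM4 over SRRM3 turned from 0.079 to -0.028, so it gives no order of the branches there. MSI1 was the highest library for 5 genes with TMM factors and for 5 with DESeq2 size factors, in place of 8. With either set of factors the log2 ratio of ACAT2 in SRRM3 over the empty vector, 0.011, was -0.0001 or -0.0002, so 26 of the 34 ratios were above 0 there. No paired analysis was possible because each group has 1 library. Counting error is small for these genes, and the spread between cultures of a line is unknown.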
